A study of Rattus norvegicus with 12 samples.

Results

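The miRNAs described here are the miR-15/16 family with miR-503, measured as 7 of the 375 miRNA assays of a qRT-PCR panel. The 7 assays were chosen by their names, as the guide strands of miR-15a, miR-15b, miR-16, miR-195, miR-322, miR-497 and miR-503, and that choice was made with their measured change from E20 to P25 in these samples in view. The levels and changes of the members over age are therefore given as a description, without a test. RNA came from parotid acinar cells of Sprague Dawley rats (albino), isolated by laser capture microdissection at embryonic day 20 (E20) and at postnatal days 5, 15 and 25 (P5, P15 and P25). Each age had 3 samples, taken from separate litters per the study's methods, which makes 12 in all; no treatment or allele separated the ages, so age was the only factor compared. Acinar cells were picked by their shape in stained sections, and each sample combined material from several capture caps. Each member had 1 assay on the panel, designed for the mouse miRNA.

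MicroRNAs guide the silencing machinery to messenger RNAs that pair with their seed, the stretch near the 5′ end. The miR-15/16 family is known for a seed that pairs with messages of the cell division machinery, among them D-type and E-type cyclins, Cdk6, Chek1 and Cdc25a, and its members are known as brakes on proliferation. The parotid acinar cell, the serous cell that makes amylase and other salivary proteins, divides and fills with secretory granules over the weeks around birth.

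The mature sequences are shown because they define the family and show what separates miR-503 from the rest. RefSeq on the rat build GRCr8 held 6 of the 7 members; miR-15a is named only. The sequences are written 5′ to 3′, with the seed (bases 2 to 8) in capitals.

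miR-16: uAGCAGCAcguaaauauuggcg
miR-195: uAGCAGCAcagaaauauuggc
miR-15b: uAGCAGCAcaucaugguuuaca
miR-497: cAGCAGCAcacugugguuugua
miR-322: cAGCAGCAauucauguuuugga
miR-503: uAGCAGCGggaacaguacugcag

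The seed AGCAGCA was shared by miR-15b, miR-16, miR-195, miR-322 and miR-497, and no other name among the 693 mature rat miRNAs of the table carried it. The seed of miR-503 was AGCAGCG, found in 1 of the 693, so it kept the first 6 seed bases and differed at the last. Beyond the seed the members diverged. From base 9 onward miR-16 and miR-195 had the same base at 11 of 13 positions (84.6%), the closest pair, whereas miR-322 and miR-503 had 5 of 14 in common. Whether the miR-16 and miR-195 primers each amplified some of the other miRNA was not tested.

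The genes lie in pairs on the genome. On GRCr8, the mature miR-15b lies at chr2:155555197-155555218 and miR-16 at chr2:155555343-155555364, both on the plus strand, and their hairpin genes Mir15b and Mir16 lie 51 bases apart within the protein-coding gene Smc4. The mature miR-497 lies at chr10:55450172-55450193 and miR-195 at chr10:55450509-55450529 on the plus strand, with 255 bases between the hairpin genes and no other gene of the RefSeq table over them. On the minus strand of the X chromosome, miR-322 lies at chrX:137726198-137726219 and miR-503 at chrX:137725899-137725921, with 220 bases between Mir322 and Mir503, both inside the long noncoding RNA gene LOC102550366. Mir351, Mir542 and Mir450a1 follow on the same strand, and the stretch from Mir322 to Mir450a1 spans 5309 bases.

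Levels were read from the threshold cycle (CT), the PCR cycle at which a well's fluorescence passes a set limit, so a higher CT means less template. The level of an assay is the median CT of the miRNA assays detected on that array minus its own CT, on a log2 scale where 1 unit is 1 cycle; 0 is the middle of the array and negative levels lie below it. Between 179 and 307 of the 375 assays gave a CT per array, and the array medians ran from 31.3 to 34.8 cycles. Detection differed between the first and last ages, with 282 to 306 assays per array at E20 and 202 to 223 at P25. The array medians were 31.9 to 32.3 cycles at E20 and 33.7 to 34.2 at P25. The part of this difference in the levels and missing wells at P25 was not tested. The array of P15 replicate 1 stood apart with the lowest number detected and the latest median, and it lacked a CT for miR-322, miR-497 and miR-503. Over all 12 arrays the members gave a CT in 76 of 84 wells, of which 9 were later than 35 cycles, where qRT-PCR is less precise. Testing required that no age lacked a CT in more than 1 of its 3 replicates; 192 assays passed, among them all 7 members.

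miR-503, which is known to slow cell division through cyclins, was high before birth and came late or gave no CT at P25. Its level at E20 was 3.06, 4.44 and 2.36 in replicates 1, 2 and 3, a mean of 3.28 ± 1.06 (SD, n = 3). At P5 it was 0.87, 3.78 and 1.36, at P15 it was 2.02 and 0.81 in replicates 2 and 3, and at P25 it was -2.77 and -0.67 in replicates 1 and 2. The 2 P25 wells came late, at a CT of 36.9 in replicate 1 and 34.4 in replicate 2. P15 replicate 1 and P25 replicate 3 gave no CT. Every measured P25 level lay below every level at the 3 earlier ages. The 2 measured P15 levels lay below all those of E20, whereas P5 overlapped with both E20 and P15. Among the assays detected on its own array, miR-503 ranked 11 of 306 in E20 replicate 2, the sample where it was highest, and 164 of 202 in P25 replicate 1, where it was lowest.

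From E20 to P25 miR-503 fell by 4.37 on the log2 scale (SE 0.99, 95% interval from -6.46 to -2.27), 20.7-fold if template doubles at each cycle. The fit held 2 imputed wells, and with the measured wells alone the fall was 5.00. P25 replicate 3, which gave no CT, was imputed above both measured P25 levels. Without P25 replicate 1 the change was -3.26, which rests at P25 on replicate 2 and an imputed well. miR-503 ranked 5 of 192 from the largest fall. Between successive ages the fitted change was -1.28 from E20 to P5, -1.04 from P5 to P15 and -2.05 from P15 to P25, each with an SE of 0.99.

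miR-322, the rat counterpart of human miR-424 and the nearest neighbour of miR-503 on the genome, moved less. It stood at 1.68, 2.34 and 0.97 at E20, at 1.92 and 1.07 in P5 replicates 2 and 3, at 1.42 and 0.63 in P15 replicates 2 and 3, and at -0.74, 0.98 and 1.03 at P25. The ages overlapped except for P5 and P25, where the lowest measured P5 level (1.07) lay just above the highest P25 level (1.03). The means were lower at each later age. The mean was 1.66 ± 0.69 (SD, n = 3) before birth, and by P25 it was 0.42 ± 1.01 (SD, n = 3). The change from E20 to P25 was -1.24 (SE 0.81, 95% interval from -2.95 to 0.47), with 2 imputed wells in the fit.

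miR-16, a miRNA found in most tissues and the member with the highest mean level at every age, was at about the same level at the first and last ages. It was at 4.93, 3.74 and 4.13 at E20 and at 2.98, 4.50 and 5.32 at P25, so that the E20 mean of 4.26 ± 0.61 (SD, n = 3) compared with a P25 mean of 4.27 ± 1.19 (SD, n = 3). In between it was at 2.91, 4.94 and 4.26 at P5 and at -1.32, 4.70 and 5.23 at P15, where the low value came from the array that stood apart. The change from E20 to P25 was 0.00 (SE 1.33, 95% interval from -2.82 to 2.83), an interval wide enough to hold a change of several-fold either way.

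miR-15a and miR-15b, which in mammals are each encoded beside a copy of miR-16, also showed no separation of the ages. miR-15a was at 3.09, 2.17 and 2.93 at E20 and at 2.59, 2.82 and 3.14 at P25, the narrowest spread of any member at P25. Its levels at P5 were 1.68, 3.61 and 1.57 and at P15 they were 0.92, 3.28 and 2.49. miR-15b was at 2.36, 0.67 and 0.31 at E20, at -0.12, 1.93 and 2.85 at P5, at -1.06, 1.69 and 2.50 at P15, and at 0.85, 1.25 and 3.05 at P25. From E20 to P25 the change was 0.12 (SE 0.81, 95% interval from -1.59 to 1.84) for miR-15a and 0.60 (SE 1.05, 95% interval from -1.63 to 2.84) for miR-15b.

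miR-195 and miR-497, the pair on chromosome 10, had the lowest levels before birth and higher means at all 3 later ages. miR-195, known from heart and skeletal muscle as a brake on the cell cycle, was at -2.82, -1.05 and -2.19 at E20. Its levels were -1.49, -0.14 and 0.57 at P5 and 0.14, 1.54 and 2.56 at P15. At P25 they were spread over more than 5 cycles, at -2.49, 0.43 and 3.11, so the P15 levels lay above all those of E20 while the P25 levels overlapped them. The change in miR-195 was 3.43 (SE 1.16, 95% interval from 0.96 to 5.90) from E20 to P15 and 2.37 (SE 1.16, 95% interval from -0.10 to 4.84) from E20 to P25. Without P25 replicate 3 the latter was 0.99, and without P25 replicate 1 it was 3.79.

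miR-497 was the least often detected member, with a CT in 8 of 12 wells, 4 of them later than 35 cycles. It was at -4.70 and -3.61 in E20 replicates 1 and 2, at -0.05 and -3.93 in P5 replicates 2 and 3, at 0.99 and -1.41 in P15 replicates 2 and 3, and at -1.11 and -2.15 in P25 replicates 2 and 3. Its 2 measured P25 levels lay above its 2 measured E20 levels. The fitted change was 3.42 (SE 0.99, 95% interval from 1.32 to 5.52) from E20 to P15 and 2.33 (SE 0.99, 95% interval from 0.23 to 4.43) from E20 to P25, with 4 imputed wells among 12.

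**Figure D1:**
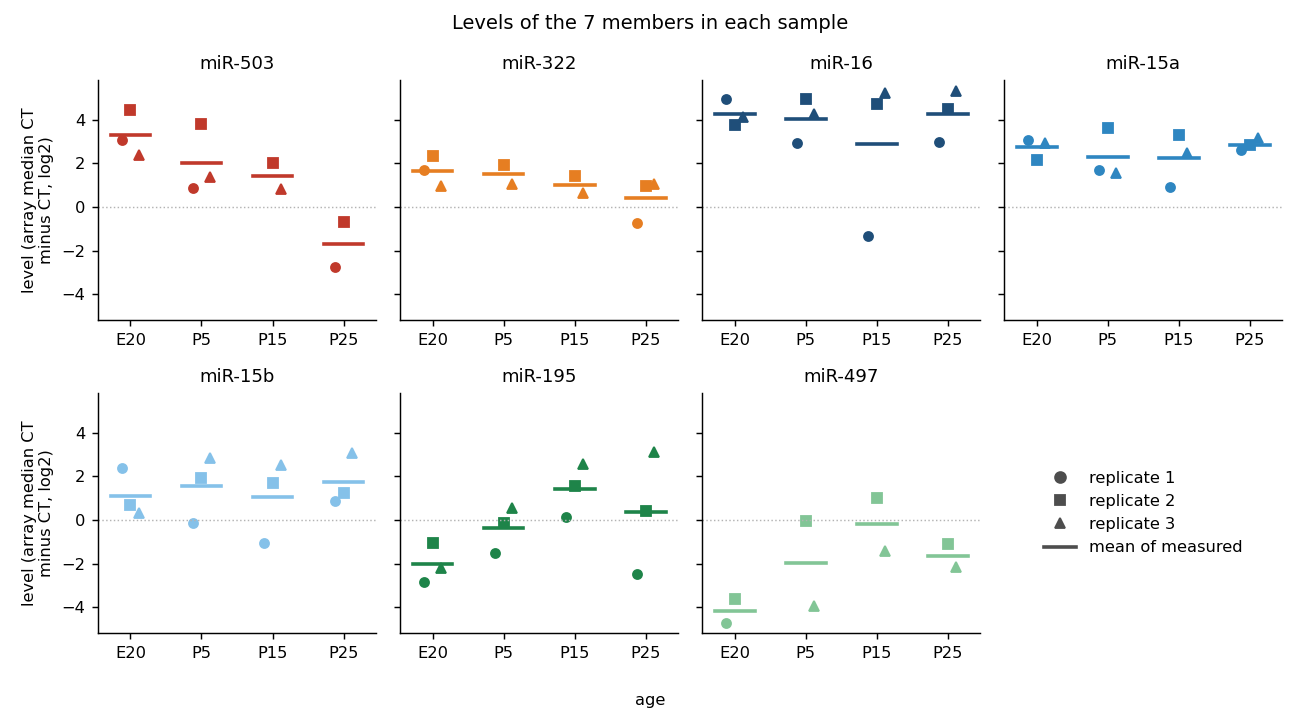
Level of each of the 7 members in each sample (y axis, array median CT minus CT, log2) at E20, P5, P15 and P25 (x axis); symbols give the replicate, bars the mean of the measured wells, and wells with no CT are not drawn. miR-503 goes from 2.36 to 4.44 at E20 to -2.77 and -0.67 at P25, miR-195 and miR-497 are lowest at E20, and the low miR-16 point of -1.32 at P15 is replicate 1.

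The order of the members changed between the first and last ages, although levels of different assays also carry the efficiency of each primer pair, which was not measured. At E20 the mean levels ran from miR-16 (4.26) through miR-503 (3.28), miR-15a (2.73), miR-322 (1.66), miR-15b (1.11) and miR-195 (-2.02) to miR-497 (-4.15). Neighbours in this order from miR-16 to miR-15b overlapped in their samples, while miR-195 lay below all of these and miR-497 below miR-195. At P25 the order was miR-16 (4.27), miR-15a (2.85), miR-15b (1.72), miR-322 (0.42), miR-195 (0.35), miR-497 (-1.63) and miR-503 (-1.72). At P25 each member overlapped its neighbours in that order. miR-503 and miR-497 were measured there in different replicates, and in replicate 2, which had both, miR-503 was the higher by 0.44, so their places at the end are not ordered.

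Because every well of a sample shares the same array, the difference between 2 members in a sample is free of the array reference. miR-503 exceeded miR-322 by 1.37, 2.10 and 1.39 at E20, by 1.86 and 0.29 in P5 replicates 2 and 3, and by 0.60 and 0.18 in P15 replicates 2 and 3. At P25 the sign turned, with differences of -2.03 and -1.65 in replicates 1 and 2, where miR-503 came at a CT of 36.9 and 34.4. The mean difference therefore was 1.62 ± 0.41 (SD, n = 3) before birth and -1.84 ± 0.27 (SD, n = 2) at P25, a shift of -3.46 between 2 miRNAs whose genes are 220 bases apart. The E20 and P25 samples did not overlap in it.

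Against miR-16, miR-503 was at -1.88, 0.70 and -1.77 at E20 and at -5.74 and -5.16 in P25 replicates 1 and 2. The mean difference was -0.98 at E20, -2.03 at P5, -3.55 at P15 and -5.45 at P25, lower at each successive age. Leaving out each E20 or P25 sample in turn gave a shift from E20 to P25 between -4.92 and -3.63, beside -4.47 with all of them. miR-322 against miR-16 had a mean difference of -2.60 at E20 and -3.84 at P25, with an SD of 0.857 over the 10 samples where both gave a CT. Over the same 10 samples the SD was 0.671 for miR-15b and 0.709 for miR-15a against miR-16. In P15 replicate 1, which is not among the 10, miR-15b and miR-15a lay above miR-16, by 0.25 and 2.23, and in all other samples below it.

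miR-195 approached miR-16 after birth. The difference was -7.75, -4.79 and -6.31 at E20, -4.40, -5.08 and -3.69 at P5, 1.46, -3.16 and -2.67 at P15, and -5.47, -4.07 and -2.22 at P25. Its mean went from -6.29 at E20 to -3.92 at P25, and E20 overlapped with both P5 and P25. Leaving out each E20 or P25 sample in turn gave a shift between 1.52 and 3.14, beside 2.37 with all of them. miR-195 and miR-497, whose hairpins are 255 bases apart, kept a mean difference of 2.22 at E20 and 3.40 at P25, but single samples ran from -0.09 to 5.26. The widest-moving pair was miR-503 and miR-497. Their mean difference was 7.90 in the 2 samples of E20 where both gave a CT, with miR-497 at 36.6 and 35.8 cycles. It was 0.44 in the 1 sample of P25 where both gave a CT.

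**Figure D2:**
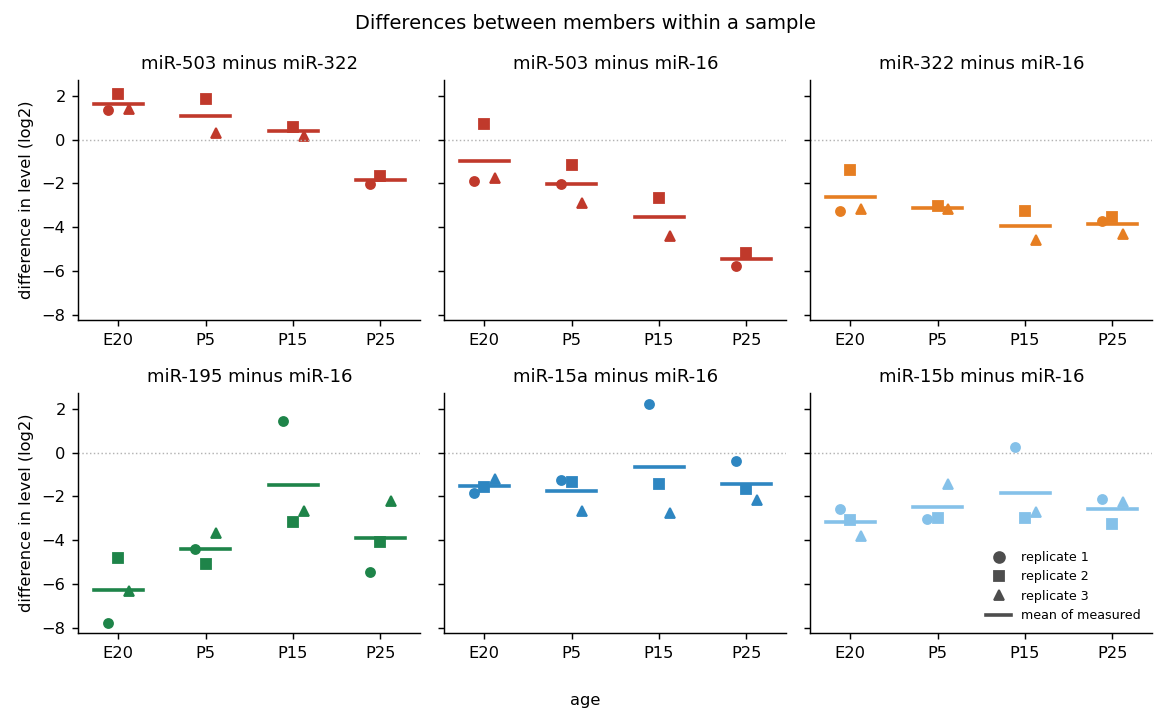
Difference in level between 2 members in the same sample (y axis, log2, reference-free) at each age (x axis) for 6 pairs; symbols give the replicate and bars the mean of the samples where both gave a CT. miR-503 minus miR-322 goes from a mean of 1.62 at E20 to -1.84 at P25 and miR-503 minus miR-16 from -0.98 to -5.45, while miR-15a and miR-15b minus miR-16 lie above 0 only in replicate 1 of P15.

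The same differences can be read as shares of the 7 members' summed template, taking a doubling per cycle, equal efficiency of the assays and nothing from wells without a CT. miR-16 made up 54.7%, 28.5% and 51.9% of the sum in the E20 samples and 47.4%, 62.0% and 58.9% in those of P25. miR-503 made up 14.9%, 46.3% and 15.3% at E20 but 0.884% and 1.73% in P25 replicates 1 and 2. For miR-195 the mean share was 0.646% ± 0.389 (SD, n = 3) before birth and averaged 5.80% ± 6.06 (SD, n = 3) in the P25 samples. At E20 the members with the AGCAGCA seed and miR-15a thus shared the sum with miR-503, and by P25 nearly all of it was theirs.

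**Figure D3:**
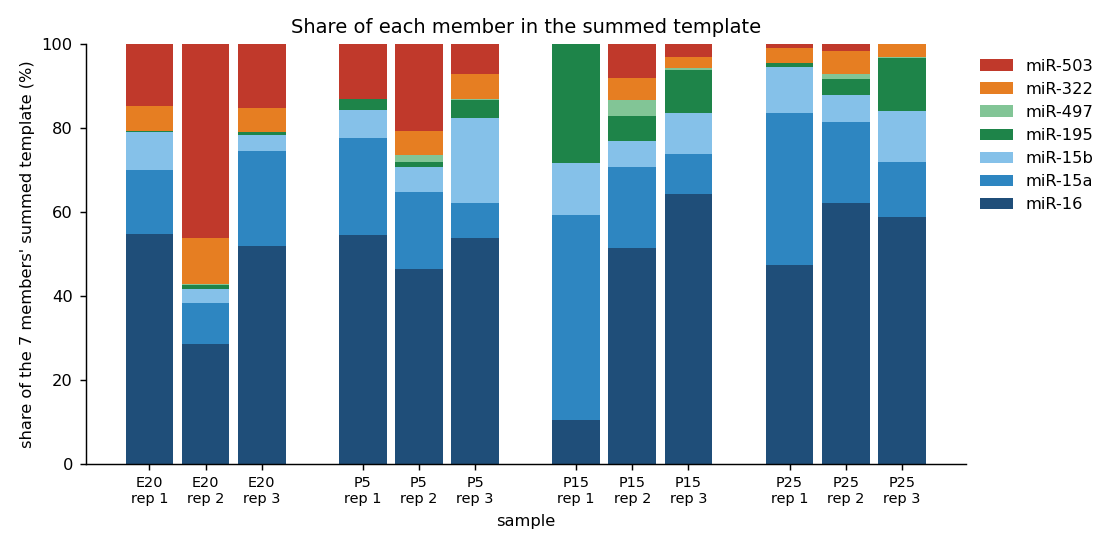
Share of each member in the summed template of the 7 members (y axis, percent) in each of the 12 samples (x axis), with wells without a CT counted as 0. The miR-503 share is 14.9% to 46.3% at E20 and at most 1.73% at P25, and P15 replicate 1 differs from the rest, with 10.4% miR-16 and 28.5% miR-195.

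Counts of members called by limma are given beside the share of all assays called, and nothing is read from them because the choice of members used these contrasts. Between E20 and P25, 1 of the 7 members, miR-503, had a Benjamini-Hochberg adjusted p under 0.05, beside 12% of the 192 assays in either direction and 7.81% lower at P25. At an unadjusted p under 0.05 the count was 2 of 7, beside 32.3% of all assays. The call of miR-503 was lost without E20 replicate 2 (change -3.84) and without P25 replicate 1 (change -3.26), with small nuclear RNAs as the reference (change -3.36, SE 3.19), with missing values set to CT 40 (change -6.53) and with ordinary tests in place of limma (change -4.37). Across the 4 ages the limma F test called 1 of 7 members, beside 7.81% of all assays, a call that was lost on leaving out any 1 of 7 samples, namely any E20 replicate, P5 replicate 3, P15 replicate 3, or P25 replicate 1 or 2. A linear trend with age was called for 1 of 7 members, beside 14.1% of all assays. Both of these calls were miR-503. Without P25 replicate 1 the trend of miR-503 was no longer called and that of miR-195 was, which left the count at 1.

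Between P5 and P25, 0 of 7 members were called by limma, beside 3.12% of all assays, and 1 member and 33 assays in all had an unadjusted p under 0.05. Among P5, P15 and P25, the deviations of same-numbered samples from their age means correlated at 0.126 to 0.563. Replicate 1 had the fewest assays detected at each of these ages (224, 179 and 202), and its part in this was not tested. With the replicate number as a block 1 member was called between P5 and P25, miR-503, with a change of -3.09, beside 4.69% of all assays. From E20 to P15, 0 of 7 members were called, beside 0% of all assays; 3 members and 40 assays in all had an unadjusted p under 0.05. With the replicate block 2 members, miR-195 and miR-497, were called there, beside 5.73% of all assays, although E20 did not pair with the later ages in the values. The median change from E20 to P25 was 0.12 over the 7 members and 0.15 over the 192 assays, and 2 of 7 members and 46.4% of the assays had a change below 0. Of the 156 assays with a CT in all 6 samples of E20 and P25, 39.1% did not overlap between these ages; 5 members were among them, and 0 of these 5 did not overlap.

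The other miRNAs of the X-chromosome cluster are neighbours of miR-503, and the choice of members did not use their values. The miR-503 change set beside them was in view in that choice. miR-351 was at 4.27, 4.23 and 4.34 at E20 and 3.82, 3.12 and 3.79 at P25, a change of -0.70 (SE 0.66, limma adjusted p = 0.474). Its P25 levels all lay below those of E20. The mouse assay for miR-450a-5p was at 2.34, 2.87 and 1.51 at E20 and at 0.39 and 0.12 in P25 replicates 2 and 3, a change of -2.20 (SE 0.77, limma adjusted p = 0.0707) that did not pass the test, although its linear trend with age did, with a limma adjusted p of 0.0291. The rat miR-450a assay went against it in P25 replicate 1, at 5.40 where the mouse assay gave no CT, and its change was -0.19 (SE 1.04, limma adjusted p = 0.893).

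miR-542-5p had a CT in all 3 E20 samples, at 0.14, -1.21 and -2.16, and in none of P25, so it was not tested. miR-450b-5p gave a CT in 2 wells and miR-450a-3p in 0. Among the neighbours with a test, none was called between E20 and P25, and their estimated changes lay between -2.20 and -0.19, beside -4.37 for miR-503 and -1.24 for miR-322. The difference between miR-503 and each neighbour was not tested.

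miR-103 and miR-107 are no family members, but their 5′ ends hold the AGCAGC letters 1 base earlier, so that their seed is GCAGCAU. They are shown for this overlap.

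miR-103: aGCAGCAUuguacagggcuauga
miR-107: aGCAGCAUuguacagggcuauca

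The letters AGCAGC within bases 1 to 8 were found in 8 of the 693 mature names, namely these 2 and the 6 members printed above. miR-103 was at 5.26, 5.02 and 4.65 at E20 and 3.82, 4.84 and 3.12 at P25, a change of -1.05 (SE 0.85, limma adjusted p = 0.422). For miR-107 the change was -0.99 (SE 0.74, limma adjusted p = 0.389), from between 3.49 and 4.66 at E20 to between 2.77 and 3.41 at P25. Neither passed the test, although the miR-107 samples of these ages did not overlap while those of miR-103 did.

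**Figure D4:**
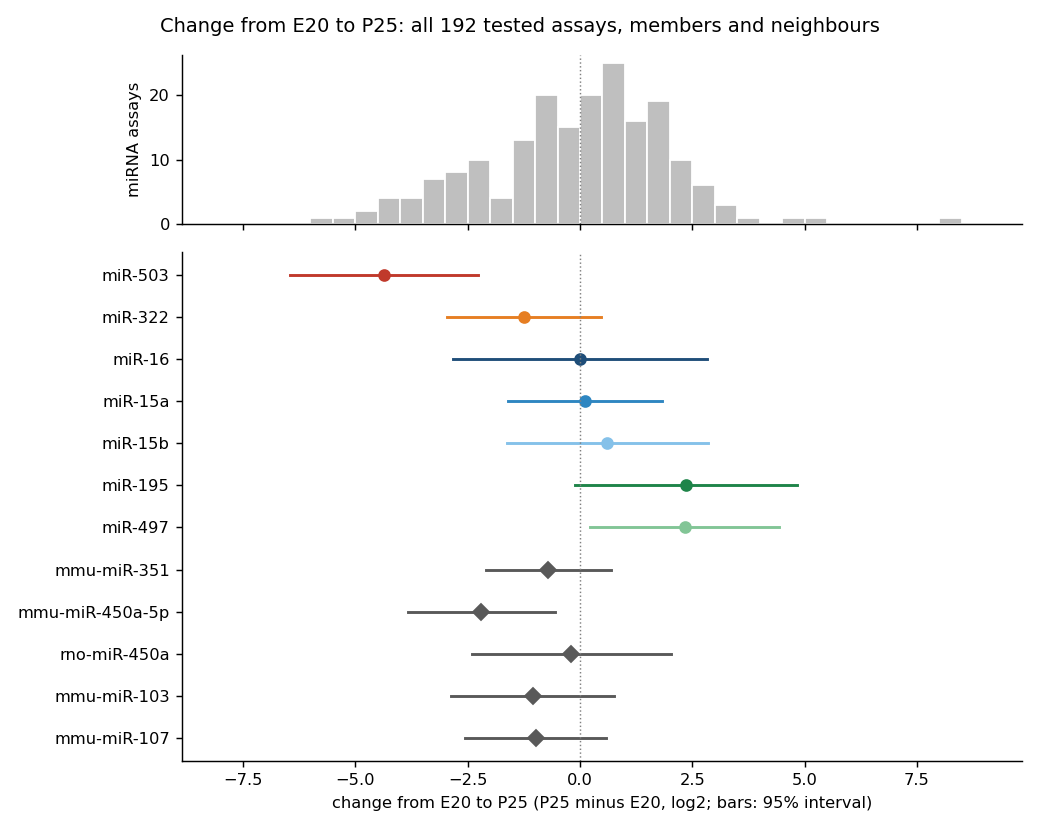
Change from E20 to P25 (x axis, P25 minus E20, log2) with its 95% interval from limma for the 7 members (circles) and 5 assays of cluster neighbours or of the shifted motif (diamonds), below a histogram of the change in all 192 tested assays. miR-503 at -4.37 lies in the left tail, miR-195 at 2.37 and miR-497 at 2.33 on the right, and miR-16 and miR-15a at 0.00 and 0.12 near the middle.

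The assays that followed each member most closely over the samples were found by the SD of the CT difference, in which the reference cancels; these are descriptions over 10 to 12 samples that share their arrays, and an SD over 10 samples may leave out the array that stood apart. miR-503 was followed by miR-214 (SD 0.756 over 10 samples), miR-127 (0.938) and miR-434-3p (1.10), out of 139 candidates. miR-214 is known from mesenchyme, and miR-127 and miR-434-3p come from the imprinted Dlk1-Dio3 region. miR-214 was at 3.18, 3.69 and 2.88 at E20 and at -3.39, -0.79 and 0.35 at P25, a change of -4.53 (SE 0.91). The change was -4.97 (SE 1.12) in miR-434-3p and -3.66 (SE 1.19) in miR-127. These assays were picked for following miR-503 in the same samples, so their changes are given without a test.

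**Figure D5:**
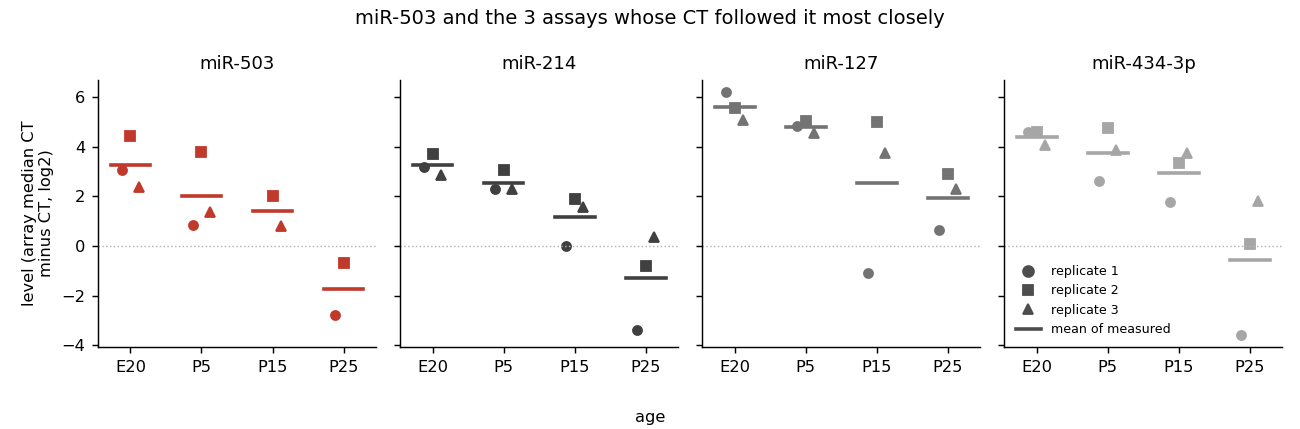
Levels (y axis, array median CT minus CT, log2) of miR-503 and of miR-214, miR-127 and miR-434-3p, the assays with the smallest SD of the CT difference to it, at each age (x axis); symbols give the replicate and bars the mean of the measured wells. All 4 have their lowest mean at P25, and miR-214 goes from a mean of 3.25 at E20 to -1.28 at P25.

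The other members were followed by other assays. For miR-322 these were miR-148b (SD 0.611), miR-199a-3p (0.666) and miR-103 (0.695), and for miR-16 they were miR-204 (0.780), miR-342-3p (0.787) and miR-219 (0.798). miR-15a was followed by miR-23a (0.505), miR-423-3p (0.507) and miR-24 (0.525), and miR-15b was followed by miR-27b (0.629), miR-30b (0.680) and miR-219 (0.692). The assays nearest to miR-195, each over 12 samples, had larger SDs, namely miR-26a (1.39), miR-141 (1.39) and miR-30b (1.44). miR-497 had too few CT values to be compared in this way.

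Markers of the captured cells and of other cell types moved over the same ages. The secretory miRNAs miR-375 and miR-148a both rose from E20 to P25 by limma, and their summed level (log2 of the summed template relative to the array median) went from 2.49 to 3.70 at E20 to 8.01 to 8.66 at P25. Of the 3 mesenchymal assays 1, miR-214, was called, and it fell; their summed level was 4.81 to 5.57 at E20 and 2.30 to 2.68 at P25. Of the 5 striated muscle assays 3 were tested and 2, miR-1 and miR-133b, fell, the summed level going from between 4.36 and 6.23 to between 0.17 and 1.88. Leaving out each sample in turn ended the call of miR-1 in 5 and that of miR-133b in 7 of 12 cases. The summed levels of both lists were thus lower at P25, as that of miR-503 was, and their part in its fall was not tested.

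Of 3 assays of smooth muscle and pericyte miRNAs 1, miR-145, was called higher, by 4.74. That call was lost in 6 of 12 cases when 1 sample was left out, and without E20 replicate 1, the lowest sample, the change was 2.35. The summed level of the list was 4.77 to 5.11 at E20 and 6.43 to 7.35 at P25, over the ages at which miR-195 and miR-497 had higher means; its part in theirs was not tested. No call was made among the 8 epithelial, 1 endothelial, 4 tested leukocyte and 1 tested nerve assays between E20 and P25. The erythroid miRNAs miR-451 and miR-144 had a CT in 8 and 7 of 12 wells and were not tested. In samples of captured tissue, a lower level may mean fewer cells that hold a miRNA or less of it per cell, and these cannot be told apart.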

How the data were processed

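RNA of laser-captured cells from 12 samples, 3 at each of 4 ages by their labels, was run by the authors on an Exiqon LNA primer panel for mouse and rat miRNAs. The deposited values are CTs per well, neither normalized nor pooled over replicates, and were used here as a log-scale score. For their own analysis the authors subtracted each array's median CT and imputed missing replicates. Wells without a CT under 40 were read as missing.

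The level was the median CT of an array's detected miRNA assays minus the CT of the well. Assays with a CT in at least 2 of 3 replicates at each age were kept (192 of 375), and missing values were imputed from the 10 nearest neighbours (8 member wells). Age means over all 12 samples were fitted with limma 3.58.1 in R 4.3.3, with Benjamini-Hochberg adjustment and a threshold of 0.05. The procedure was also run on simulated data with independent noise in each well, so that run does not cover deviations shared between arrays. Age for the linear trend was in days from birth at embryonic day 22. Figures used matplotlib 3.10.9. The members, marker lists and tests were chosen with earlier results of these data known. Assays named were the members, their cluster neighbours, miR-103 and miR-107, markers, and for each member with at least 10 CTs the 3 assays with the smallest SD of the CT difference.

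Pairing by replicate number was examined through the correlation of same-numbered samples' deviations from the age means over 120 assays. It was over 0.1 in 9 of 9 pairs among P5, P15 and P25 (0.126 to 0.563) and in 1 of 9 pairs with E20 (-0.234 to 0.123). The postnatal ages alone were thus read as paired, which rests on the values, since no label says what a number marks. The main fit held no pairing. The replicate block was an alternative fitted over all 12 samples, E20 included. Alternatives covered the filter, reference, missing values, CT limit, replicate block, statistic, and each sample left out.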

Additional observations from a re-analysis of the deposited data

How the results depend on the processing

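miR-503 was lower at P25 than at E20 in all 24 alternative settings that could test it and was called in 19. These settings reuse the same 12 samples, and the choice of members had this change in view, so the tally is a description only. Detection in all 12 samples, or taking a CT above 35 as not detected, removed it from the tests. Its call was lost with small nuclear RNAs as the reference (-3.36), with missing values at CT 40 (-6.53), with ordinary tests in place of limma (-4.37), and without E20 replicate 2 or P25 replicate 1; leaving out each sample gave -5.00 to -3.26. Counts are given beside the share of all assays called in the same setting. Between E20 and P25, 0 members were called with detection in all 12 samples (5%), the CT limit of 35 (9.24%) and small nuclear RNAs (0%). The count was also 0 with CT 40 (5.21%) and ordinary tests (6.77%). It was 0 to 1 with a sample left out (5.73% to 20.3%), and without P25 replicate 1 the call was miR-195. It was 2 with the array median taken after imputation (24.5%) or with only the E20 and P25 samples (18%). miR-497 was the added call, at 3.06 and 2.14. The F test called 0 members with detection in all 12 samples (5.83%), the median of commonly detected assays (8.33%) and small nuclear RNAs (0%). It also called 0 with no normalization (0%), CT 40 (1.56%), no imputation (5.21%), the CT limit of 35 (5.04%) and ordinary tests (3.65%). With a sample left out it called 0 to 1 (0.521% to 10.9%). The linear trend was called for 0 members with detection in all 12 samples (8.33%), small nuclear RNAs (0%) and the CT limit of 35 (10.9%). It was called for 3 with the median after imputation (24%). With the replicate block the counts were 2 for the linear trend (20.8%), 1 between P5 and P25 (4.69%) and 2 from E20 to P15 (miR-195 and miR-497, 5.73%). The block left 1 between E20 and P25 (16.7%) and 1 across the ages (9.9%). From E20 to P15, 1 member was called with the median after imputation (4.17%), and 0 to 1 with a sample left out (0% to 3.12%). Cause was not tested.

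The sign of the small changes depended on the setting. With the mean of commonly detected assays as the reference the changes were -0.18 for miR-16 and -0.059 for miR-15a, and with CT above 37 as not detected -0.29 and -0.17. Without normalization miR-16, miR-15b and miR-15a were at -1.72, -1.12 and -1.60, and with a CT limit of 35 at -0.73, -0.13 and -0.61. Leaving out each sample gave -0.53 to 0.65 for miR-16, -0.16 to 0.30 for miR-15a, -0.066 to 1.23 for miR-15b and 0.99 to 3.79 for miR-195, which was called without P25 replicate 1. Late CT values limit miR-497 most.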
